A study of Mus musculus with 18 samples.

Results

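The 5 genes described here encode the receptors with which mouse macrophages bind the Fc part of IgG: *Fcgr1*, *Fcgr3* and *Fcgr4*, the activating receptors, *Fcer1g*, which encodes the signalling chain they share, and *Fcgr2b*, the inhibitory receptor. They were the rows of the deposited gene table with these names, 5 of its 20615 genes. All 5 passed the filter on low counts that left 15789 genes for testing. *Fcgr2b*, *Fcgr4*, *Fcgr3* and *Fcer1g* lie on chromosome 1 and *Fcgr1* lies on chromosome 3.

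IgG bound to a target crosslinks these receptors on the macrophage surface. The activating receptors carry no signalling motif of their own in the cell and depend on the gamma chain, whose immunoreceptor tyrosine-based activation motif (ITAM) is phosphorylated by Src family kinases and then recruits Syk, which leads to phagocytosis and cytokine release. FcγRIIB carries an inhibitory motif (ITIM), recruits phosphatases such as SHIP1 and dampens the same signals, so that the levels of activating and inhibitory receptors together set the response to immune complexes. In mice, interferon-γ is known to raise *Fcgr1* and *Fcgr4*.

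Bone marrow-derived macrophages (BMDMs), grown from bone marrow for 7 days with M-CSF from L929 cell supernatant, came from C57BL/6 (B6) mice and from C57BL/6.NOD-Aec1Aec2 mice, called SjSS here, a model of Sjögren's syndrome in which intervals of the NOD mouse, a strain with spontaneous autoimmunity, were placed on the B6 background. The mice were female and 7 to 12 weeks old. BMDMs of each strain were untreated (control), or received apoptotic cells (AC), which were thymocytes killed with dexamethasone, at 5 per BMDM for 2 h with 3 h more after washing by the labels, or received 1 µM CpG, a DNA oligonucleotide that stimulates TLR9, for 6 h. The study's methods gave a longer time after washing than the labels, and a figure legend gave the 3 h without setting treatments apart. By the same methods the thymocytes came from B6 and SjSS mice. Which of them each BMDM strain received was not stated for the RNA-seq. If each received ACs of its own strain, a difference of the ACs and one of the BMDMs cannot be told apart. Each of the 6 groups had 3 samples. The sources used here gave 3 mice for each strain but not whether samples with the same number shared a mouse, so that p values measure the spread between these samples.

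RNA-seq gene totals ran from 30688336, in control SjSS replicate 2, to 57139662 estimated counts, with a median of 47912525. All 8 macrophage markers were present in each sample, with a summed level between 1.548e+04 and 2.379e+04 CPM, the count of a gene scaled by the total of its library. The 10 T cell and thymocyte markers summed to between 4.309 and 18.22 CPM, the 4 B cell markers to between 8.975 and 26.52 CPM and the 2 NK cell markers in the table to at most 0.3994 CPM. Nearly all of the T cell sum was *Cd4*, and nearly all of the B cell sum was *Cd79b*. *Cd3d*, *Cd3e* and *Cd3g* were each at or below 0.1103 CPM in the mean of every group. In bulk RNA, a change in the number of cells of a type and a change in RNA per cell cannot be told apart.

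*Fcgr1* (ENSMUSG00000015947) spans chr3:96282909-96293970 on the minus strand of mm10. *Fcgr2b* (ENSMUSG00000026656) spans chr1:170958617-170976548 on the minus strand. *Fcgr4* (ENSMUSG00000059089) follows at chr1:171018920-171029762 on the plus strand, 42.4 kb further on, and *Fcgr3* (ENSMUSG00000059498) at chr1:171051174-171064936 on the minus strand, after another 21.4 kb. *Fcer1g* (ENSMUSG00000058715) lies 164.6 kb beyond, at chr1:171229572-171234366 on the minus strand, so that the 4 genes of chromosome 1 sit within 275.7 kb. No member overlapped another gene of the table.

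The starts of *Fcgr1*, *Fcgr4* and *Fcgr2b* are shown because *Fcgr1* and *Fcgr4* rose with ACs in SjSS BMDMs, where *Fcgr2b* did not pass the test. *Fcer1g* also rose there, and its start, which held none of the matches below, is not printed. They are RefSeq windows of GRCm38.p6, the build also called mm10, each with the 250 bases before and 50 bases from the start of the transcript, read 5′ to 3′ on the strand of the gene. Capitals mark matches on either strand to TTCNNNGAA, the GAS site of interferon-γ signalling, to GAAA, NN and GAAA in a row, the ISRE of interferon regulatory factors, and to GAGGAA, the core recognised by PU.1, the factor that directs macrophage genes. The windows are chr3:96293920-96294219 on the minus strand, chr1:171018676-171018975 on the plus strand and chr1:170976022-170976321 on the minus strand.
Fcgr1: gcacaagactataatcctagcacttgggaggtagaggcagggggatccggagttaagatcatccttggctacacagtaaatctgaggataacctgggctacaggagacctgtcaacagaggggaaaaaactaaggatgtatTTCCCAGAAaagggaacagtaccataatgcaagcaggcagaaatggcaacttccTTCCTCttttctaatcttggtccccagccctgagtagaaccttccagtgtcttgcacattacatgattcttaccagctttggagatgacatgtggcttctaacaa
Fcgr4: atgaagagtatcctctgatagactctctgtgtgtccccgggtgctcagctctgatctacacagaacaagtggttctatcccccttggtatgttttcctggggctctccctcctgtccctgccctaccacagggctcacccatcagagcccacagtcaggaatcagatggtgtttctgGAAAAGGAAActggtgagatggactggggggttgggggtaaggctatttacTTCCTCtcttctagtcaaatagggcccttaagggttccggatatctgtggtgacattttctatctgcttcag
Fcgr2b: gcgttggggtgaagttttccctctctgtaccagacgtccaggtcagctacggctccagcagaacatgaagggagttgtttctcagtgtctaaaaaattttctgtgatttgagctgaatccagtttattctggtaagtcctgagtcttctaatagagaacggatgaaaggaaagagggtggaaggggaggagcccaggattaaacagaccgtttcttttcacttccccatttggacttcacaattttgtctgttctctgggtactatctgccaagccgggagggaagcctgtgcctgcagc
The *Fcgr1* window held a GAS match at -109 and a PU.1 match at -55, counted in bases from the start. The *Fcgr4* window held an ISRE match at -73 and a PU.1 match at -22, and the *Fcgr3* window held a PU.1 match, while the *Fcgr2b* and *Fcer1g* windows held none of the 3. Of 32851 RefSeq promoter windows of this length, 8.3% held the GAS letters, 3.44% the ISRE letters and 28.3% the PU.1 letters. A match says only that the letters are there.

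The 5 genes did not move together under any treatment. ACs lowered 3 of them in B6 BMDMs and raised 3 of them in SjSS BMDMs, and the interaction of strain with AC, which tests whether the response differs between strains, was positive and passed the test for all 5. Calls below are at an adjusted p under 0.05 by edgeR's quasi-likelihood test over all genes, and a gene is also past the fold threshold where its log2 fold change is over 1.3 in size.

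In B6, ACs lowered *Fcgr2b*, *Fcgr3* and *Fcgr4* and raised none. Over all genes tested, 20.0% were higher and 18.3% were lower in this comparison. *Fcgr2b* alone was past the fold threshold, as were 2.04% of all genes downwards. In SjSS, *Fcgr1*, *Fcgr4* and *Fcer1g* were higher after ACs and *Fcgr3* was lower, where 28.6% of all genes were higher and 29.4% lower. Here *Fcgr1* was past the fold threshold, as were 7.09% of all genes upwards. The median log2 fold change of the 5 genes was -0.41 in B6 and 0.66 in SjSS, against 0.001 and -0.017 over all genes. For the interaction, 5 of 5 were positive and called, where 19.6% of all genes were, and *Fcgr1* and *Fcgr2b* were past the fold threshold, as were 4.76% of all genes upwards.

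CpG raised *Fcer1g* and *Fcgr2b* and lowered *Fcgr3* in B6, where 28.1% of all genes were higher and 29.8% lower. In SjSS it raised *Fcer1g* and lowered *Fcgr3*, *Fcgr2b* and *Fcgr1*, where 27.8% of all genes were higher and 26.4% lower. *Fcgr3* was the member past the fold threshold in each strain, a call that 6.88% of all genes had downwards in B6 and 4.45% in SjSS. The interaction of strain with CpG was called for *Fcgr2b*, negative, as for 2.62% of all genes, while 3.23% were positive. Of the calls over all genes in that interaction 55.3% were positive, but 45.6% with DESeq2's size factors and 43.9% with DESeq2.

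Between the strains without treatment, *Fcgr2b* and *Fcgr3* were lower in SjSS and none was higher, where 10.6% of all genes were lower and 9.04% higher. After ACs, *Fcgr1*, *Fcgr4*, *Fcer1g* and *Fcgr2b* were higher in SjSS and *Fcgr3* was lower, where 24.0% of all genes were higher and 25.5% lower. After CpG, *Fcgr1*, *Fcgr3* and *Fcgr2b* were lower in SjSS, where 9.57% of all genes were lower and 10.2% higher, a split of 51.5% higher among the calls that became 44.4% with DESeq2's size factors and 44.1% with DESeq2. *Fcgr2b* was past the fold threshold after ACs, upwards, as were 6.24% of all genes, and after CpG, downwards, as were 0.792%. These comparisons share control or treated samples, so they are not independent of each other.

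**Figure D1:**
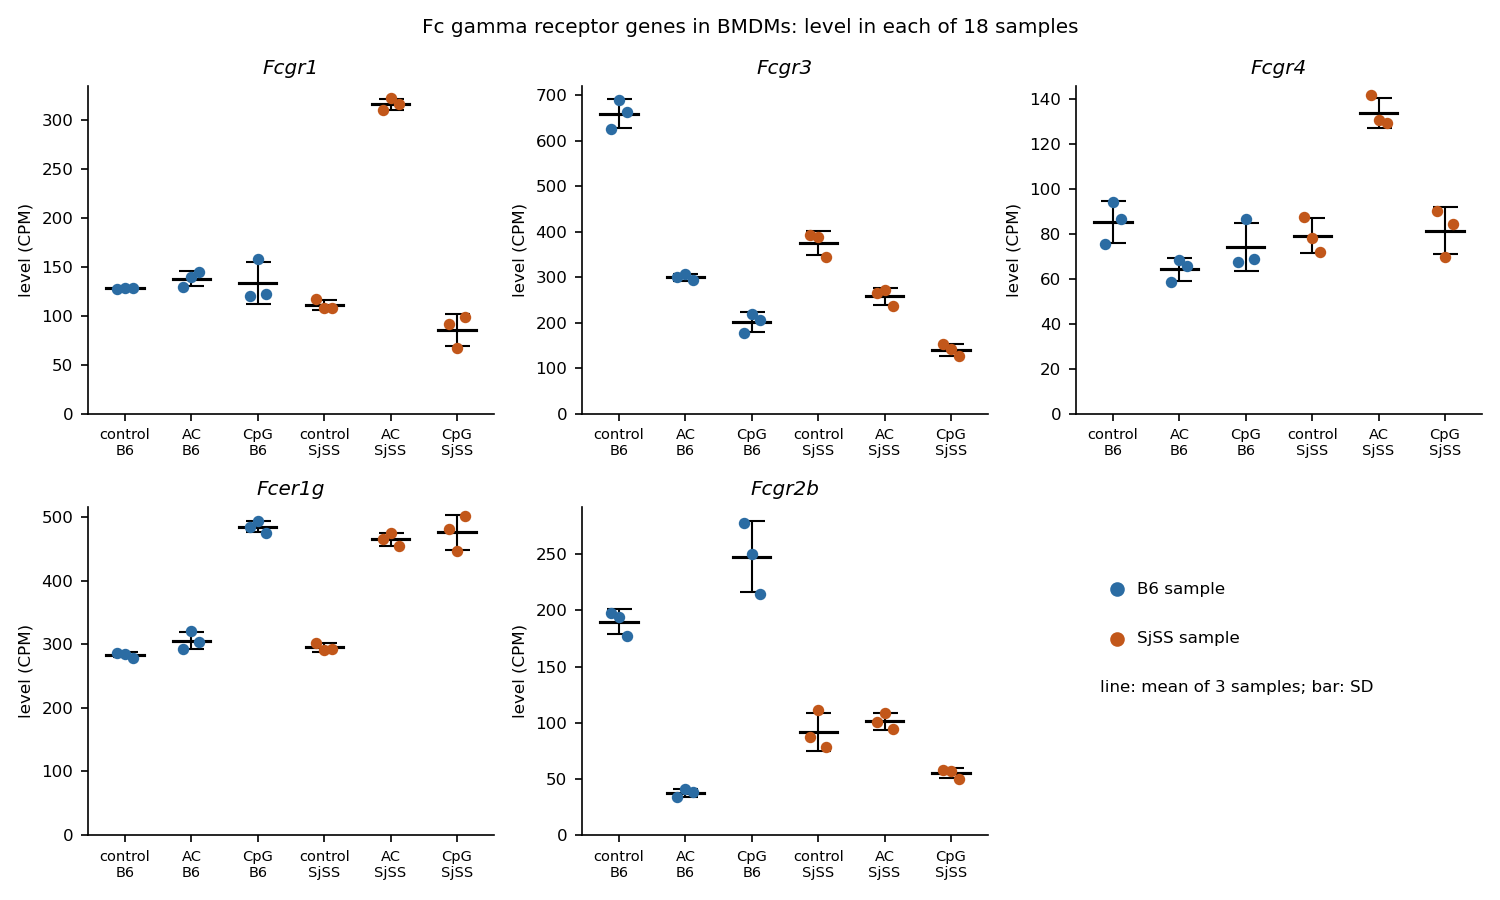
Level of each gene in CPM (vertical axis, from 0) in each of the 18 samples, by group. Points are samples, lines the mean of 3 and bars the SD. *Fcgr1* and *Fcgr4* are highest in the 3 AC treated SjSS samples, *Fcgr3* is highest in the 3 control B6 samples, and *Fcgr2b* is lowest in the 3 AC treated B6 samples.

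*Fcgr1* encodes the receptor that binds monomeric IgG with high affinity. Its level in AC treated SjSS BMDMs was 311, 322.4 and 316.3 CPM, against 116.8, 107.7 and 107.7 CPM in control SjSS. The groups did not overlap, and the AC treated SjSS samples were the highest of all 18. The log2 fold change was 1.52 ± 0.11 (SE, n = 3 and 3), or 2.86-fold (edgeR, adjusted p = 6.698e-10).

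In B6, *Fcgr1* stood at 127.9, 128.1 and 128.5 CPM in control samples and at 129.2, 140.2 and 144.9 CPM after ACs. The AC treated samples were all just above the control samples, and the log2 fold change of 0.11 ± 0.11 did not pass the test (edgeR, adjusted p = 0.479). The responses differed between strains by 1.41 ± 0.15 on the log2 scale (edgeR, adjusted p = 7.479e-07). After ACs *Fcgr1* was 2.29-fold higher in SjSS than in B6, a log2 fold change of 1.20 ± 0.11 (edgeR, adjusted p = 3.469e-08).

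With CpG, *Fcgr1* was at 120.2, 158.1 and 122.3 CPM in B6, a log2 fold change of 0.06 ± 0.11 from control (edgeR, adjusted p = 0.671), and the samples overlapped those of the control group. Without CpG treated B6 replicate 2, the highest of them, the value was -0.08. In SjSS, CpG treated samples held 91.13, 66.98 and 98.5 CPM, all below the control samples, and *Fcgr1* fell by 0.37 ± 0.11 on the log2 scale (edgeR, adjusted p = 0.00755). The interaction of -0.43 ± 0.15 did not pass the test (edgeR, adjusted p = 0.113, and 0.0450 with DESeq2). Within the CpG treated samples the strain difference was -0.64 ± 0.11 (edgeR, adjusted p = 3.700e-04), and without treatment it was -0.21 ± 0.11 (edgeR, adjusted p = 0.192), although the 3 control SjSS samples were all below the 3 control B6 samples.

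*Fcgr4* encodes an activating receptor of intermediate affinity for IgG2 subclasses. It was at 75.29, 93.93 and 86.36 CPM in control B6 samples and at 87.51, 78.14 and 71.79 CPM in control SjSS. The control groups overlapped (log2 difference -0.11 ± 0.11, edgeR adjusted p = 0.546). After ACs it was at 58.52, 68.52 and 65.52 CPM in B6 and at 141.6, 130.8 and 129.4 CPM in SjSS. Each treated group lay apart from its own control, below it in B6 and above it in SjSS.

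*Fcgr4* fell by 0.41 ± 0.11 on the log2 scale with ACs in B6 (edgeR, adjusted p = 0.00569) and rose by 0.76 ± 0.11 in SjSS (edgeR, adjusted p = 6.542e-06). It was thus the member whose AC responses passed the test in opposite directions, and the interaction was 1.17 ± 0.15 (edgeR, adjusted p = 7.019e-06). After ACs it was 2.09-fold higher in SjSS, a log2 difference of 1.06 ± 0.11 (edgeR, adjusted p = 1.739e-07).

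CpG moved *Fcgr4* little. The CpG treated samples held 67.37, 86.51 and 68.8 CPM in B6 and 89.94, 69.6 and 84.38 CPM in SjSS, and both groups overlapped their controls. The log2 fold changes were -0.20 ± 0.11 in B6 (edgeR, adjusted p = 0.125) and 0.04 ± 0.11 in SjSS (edgeR, adjusted p = 0.789). In B6 the control and CpG treated samples of the same number deviated together, and with the replicate number as a block within strain the B6 response passed the test (-0.20, edgeR adjusted p = 0.0173). It also passed without control B6 replicate 1 (-0.28, edgeR adjusted p = 0.0461) and without CpG treated B6 replicate 2 (-0.32, edgeR adjusted p = 0.0179). Across the 6 groups, the AC treated SjSS samples stood apart, and each of the other neighbours in the order of means overlapped.

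*Fcgr3* encodes the low-affinity activating receptor and was lowered by each treatment in each strain. The control B6 samples held 625.4, 689.8 and 663.9 CPM, and the control SjSS samples 392.2, 387.7 and 345.3 CPM. The SjSS samples were all lower, by 0.81 ± 0.08 on the log2 scale or 1.76-fold (edgeR, adjusted p = 1.629e-06). The 6 groups ordered as control B6, control SjSS, AC treated B6, AC treated SjSS, CpG treated B6 and CpG treated SjSS, and no neighbours in this order overlapped.

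After ACs, *Fcgr3* was at 299.5, 307.7 and 292.8 CPM in B6 and at 264.6, 272.2 and 235.8 CPM in SjSS. It fell by 1.14 ± 0.08 on the log2 scale in B6 (edgeR, adjusted p = 3.845e-09) and by 0.54 ± 0.08 in SjSS (edgeR, adjusted p = 1.337e-05), and the interaction was 0.59 ± 0.12 (edgeR, adjusted p = 4.861e-04). The AC treated strains, which did not overlap, differed by -0.22 ± 0.08 (edgeR, adjusted p = 0.0330). That call was lost with DESeq2's size factors (-0.19, edgeR adjusted p = 0.0536) and without any 1 of the 3 AC treated B6 samples or without AC treated SjSS replicate 3, with log2 differences from -0.16 to -0.24.

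With CpG, *Fcgr3* was at 176.5, 220 and 205.5 CPM in B6 and at 152, 142.2 and 125.8 CPM in SjSS. It fell by 1.72 ± 0.08 on the log2 scale in B6, or 3.29-fold (edgeR, adjusted p = 2.273e-12), and by 1.42 ± 0.08 in SjSS, or 2.68-fold (edgeR, adjusted p = 4.577e-11). The interaction of 0.30 ± 0.12 did not pass the test (edgeR, adjusted p = 0.150), but did with the replicate number as a block within strain (0.30, edgeR adjusted p = 0.0222). The CpG treated SjSS samples were all below those of B6, with a log2 difference of -0.52 ± 0.08 (edgeR, adjusted p = 1.803e-04).

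*Fcer1g*, the gamma chain gene, had the smallest SE of the 5 genes in the treatment and strain comparisons, 0.05 on the log2 scale. The control samples held 286.1, 284.9 and 278.9 CPM in B6 and 302.5, 290.8 and 291.9 CPM in SjSS. They differed by 0.06 ± 0.05 on the log2 scale, which did not pass the test although the SjSS samples were all higher (edgeR, adjusted p = 0.457). After ACs the level was 293.3, 320.8 and 303.6 CPM in B6 and 465.4, 475 and 454.1 CPM in SjSS. All AC treated samples lay above their controls, those of SjSS far above.

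The AC response of *Fcer1g* was 0.11 ± 0.05 on the log2 scale in B6 (edgeR, adjusted p = 0.0926) and 0.66 ± 0.05, or 1.57-fold, in SjSS (edgeR, adjusted p = 1.402e-09), and the responses differed by 0.55 ± 0.07 (edgeR, adjusted p = 6.310e-06). The AC treated strains differed by 0.60 ± 0.05 (edgeR, adjusted p = 9.170e-09). CpG brought it to 485.2, 494.1 and 475.7 CPM in B6 and to 481.2, 446.4 and 501 CPM in SjSS. These groups overlapped each other, and the CpG treated SjSS samples also overlapped the AC treated SjSS samples, while those of CpG treated B6 all lay above them. The CpG responses were 0.78 ± 0.05 in B6 (edgeR, adjusted p = 1.332e-10) and 0.69 ± 0.05 in SjSS (edgeR, adjusted p = 9.396e-10). Their interaction of -0.09 ± 0.07 did not pass the test (edgeR, adjusted p = 0.556).

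*Fcgr2b*, the inhibitory receptor gene, had the largest change of the 5 with ACs in B6. The control B6 samples held 198.1, 194.3 and 177.2 CPM and the AC treated B6 samples 33.56, 40.7 and 38.33 CPM, the lowest of all 18. It fell by 2.34 ± 0.12 on the log2 scale, or 5.06-fold (edgeR, adjusted p = 3.177e-11). By size of the fall it was the 58th of 15789 genes in that comparison.

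In SjSS, *Fcgr2b* was already lower without treatment, at 87, 111 and 78.41 CPM, and stood at 100.8, 108.8 and 94.22 CPM after ACs. The control SjSS samples were all below the control B6 samples, by 1.05 ± 0.11 on the log2 scale or 2.07-fold (edgeR, adjusted p = 3.202e-06). The control and AC treated SjSS samples overlapped, with a log2 fold change of 0.14 ± 0.11 (edgeR, adjusted p = 0.304). Without control SjSS replicate 2, the sample of highest *Fcgr2b* and lowest depth in its group, it was 0.29 (edgeR, adjusted p = 0.0245). The interaction of strain with AC was 2.48 ± 0.16 (edgeR, adjusted p = 8.545e-10), and after ACs *Fcgr2b* was 2.70-fold higher in SjSS than in B6 (log2 1.43 ± 0.12, edgeR adjusted p = 5.546e-09).

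CpG moved *Fcgr2b* in opposite directions in the strains. The CpG treated B6 samples held 278.1, 250.3 and 215.1 CPM, all above the control, and the CpG treated SjSS samples 58.02, 56.78 and 49.85 CPM, all below it. The log2 fold changes were 0.38 ± 0.11 in B6 (edgeR, adjusted p = 0.00579) and -0.74 ± 0.11 in SjSS (edgeR, adjusted p = 1.647e-05), and the interaction was -1.13 ± 0.16 (edgeR, adjusted p = 3.399e-04). After CpG it was 4.52-fold lower in SjSS than in B6, by -2.18 ± 0.12 on the log2 scale (edgeR, adjusted p = 2.185e-10). So the strain difference had 1 sign without treatment and with CpG and the opposite sign after ACs.

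**Figure D2:**
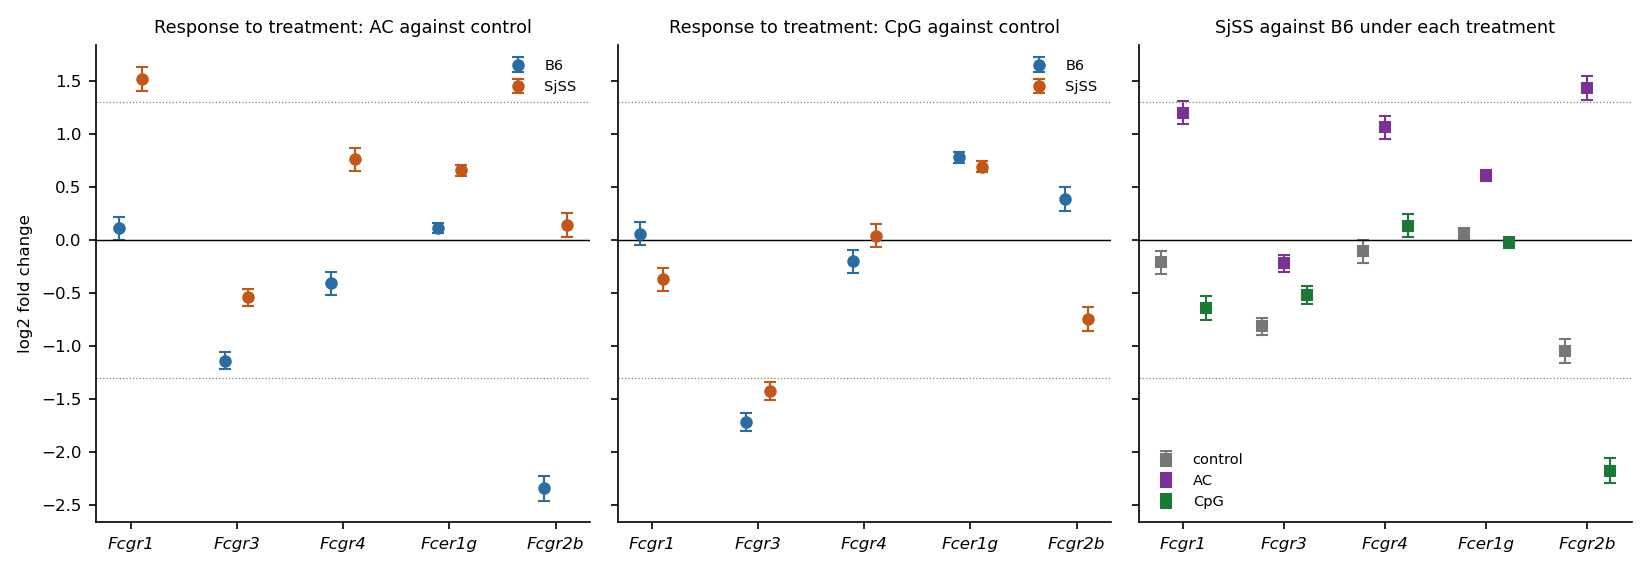
Log2 fold changes (vertical axis) of the 5 genes with ACs (left) and with CpG (middle) in each strain, and of SjSS against B6 in control, AC and CpG treated samples (right). Points are edgeR estimates from 3 against 3 samples, bars their SE, and dotted lines a log2 fold change of 1.3. *Fcgr2b* lies at -2.34 with ACs in B6 and 0.14 in SjSS, and at 1.43 after ACs and -2.18 after CpG in the strain comparison.

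*Fcgr2b* and *Fcgr3* share coding sequence, so that their reads can be hard to assign. Of the 50-base words in the GENCODE M21 transcripts of *Fcgr3*, 166 of 1627 (10.2%) were also in *Fcgr2b* transcripts, and for *Fcgr2b* these were 4.48% of its words. In all, 395 of 3708 words of *Fcgr2b* (10.7%) were in transcripts of other genes, with 107 of them in *Gm38204* and 98 in *Cplx2*. *Fcgr1*, *Fcgr4* and *Fcer1g* shared 0 such words with other genes. The longest stretch common to *Fcgr3* and *Fcgr2b* is printed here to show how alike the pair are. It runs 129 bases across the junction of exons 3 and 4 in each, all of it coding, within chr1:171054167-171057792 in *Fcgr3* and chr1:170966674-170968081 in *Fcgr2b* on the minus strand of GRCm38.
Shared stretch: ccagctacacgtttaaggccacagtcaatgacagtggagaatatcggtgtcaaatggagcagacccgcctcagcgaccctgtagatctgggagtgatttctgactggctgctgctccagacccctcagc
The deposited estimates of *Fcgr2b* were whole numbers in 0 of the 18 samples, those of *Fcer1g* in 1, of *Fcgr3* in 2, of *Fcgr1* in 10 and of *Fcgr4* in all 18, so values that were not whole were not particular to the genes with shared words. How the reads of the shared part were divided between *Fcgr3* and *Fcgr2b* was not tested, nor were the other shared words of *Fcgr2b*, and the levels of both genes are uncertain. The pair moved in opposite directions with CpG in B6, and with ACs in B6 the log2 fold changes were -2.34 and -1.14.

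Because levels of different genes depend on length, they were compared as CPM per kilobase of exon. In control B6 samples *Fcgr3* led with 380 ± 18.7 CPM per kb (SD, n = 3), followed by *Fcer1g* with 324.1 ± 4.42, *Fcgr4* with 67.83 ± 7.46, *Fcgr1* with 49.5 ± 0.108 and *Fcgr2b* with 32.79 ± 1.92. In each of the other 5 groups *Fcer1g* was first and *Fcgr3* the next. *Fcgr1* was above *Fcgr4* in both AC treated groups, with 122.3 ± 2.21 against 106.6 ± 5.34 CPM per kb in SjSS, and below it in the other 4. *Fcgr2b* was last in all 6 groups, from 6.482 ± 0.628 CPM per kb in AC treated B6 to 42.81 ± 5.46 in CpG treated B6 samples. With the longest coding transcript as length, chosen after the data were seen, *Fcgr2b* moved above *Fcgr1* in control B6 and above *Fcgr1* and *Fcgr4* in CpG treated B6 samples.

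The ratio of an activating receptor gene to *Fcgr2b* within a sample does not depend on library scaling, and is given here as a description of log2 count ratios. *Fcgr1* over *Fcgr2b* was -0.57 ± 0.09 (SD, n = 3) in control B6, 1.88 ± 0.09 in AC treated B6 and -0.90 ± 0.28 in CpG treated B6 samples. In SjSS it was 0.28 ± 0.28, 1.65 ± 0.09 and 0.62 ± 0.37 in the same order. With ACs the ratio thus went up in both strains, by 2.45 in B6, where *Fcgr2b* was lower, and by 1.37 in SjSS, where *Fcgr1* was higher.

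*Fcgr3* over *Fcgr2b* was 1.80 ± 0.13 in control, 3.00 ± 0.13 in AC treated and -0.30 ± 0.31 in CpG treated B6 samples. In SjSS it was 2.04 ± 0.20, 1.35 ± 0.04 and 1.35 ± 0.03. ACs therefore moved this ratio up by 1.21 in B6 and down by 0.69 in SjSS, and CpG moved it down in both, by 2.10 and 0.69.

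*Fcgr4* over *Fcgr2b* was -1.16 ± 0.20 in control, 0.78 ± 0.03 in AC treated and -1.74 ± 0.27 in CpG treated B6 samples. In SjSS it was -0.21 ± 0.27, 0.40 ± 0.12 and 0.56 ± 0.24. In the group means all 3 ratios were higher in SjSS than in B6 without treatment and with CpG, and lower in SjSS after ACs. The 3 ratios share *Fcgr2b* as denominator and are not independent of each other. For *Fcgr3* over *Fcgr2b* without treatment the samples of the strains overlapped, with a difference of 0.24. With CpG the strain difference was 1.52 for *Fcgr1*, 1.65 for *Fcgr3* and 2.30 for *Fcgr4*.

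**Figure D3:**
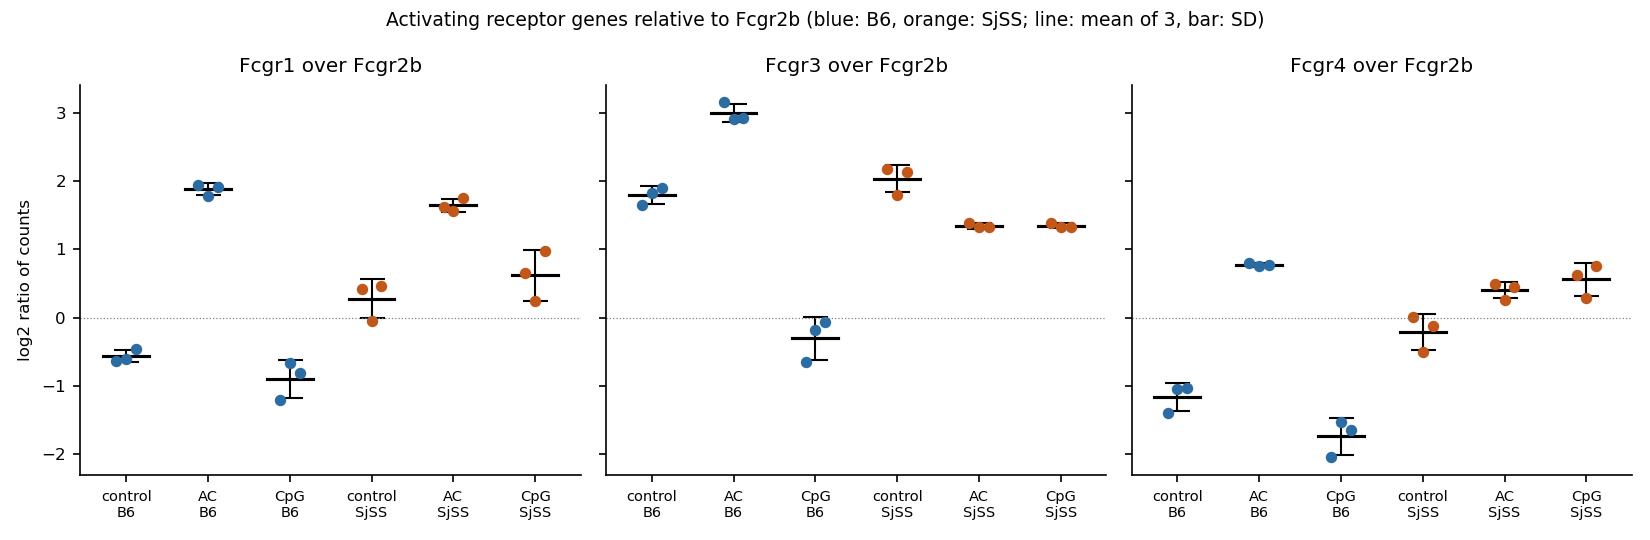
Log2 ratio of counts (vertical axis) of *Fcgr1*, *Fcgr3* and *Fcgr4* to *Fcgr2b* in each of the 18 samples, by group. Points are samples, lines the mean of 3, bars the SD and the dotted line equal counts. In B6 the AC treated samples are highest and the CpG treated samples lowest in each panel.

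Over the 18 samples, which share groups and treatments, the log2 levels of *Fcgr1* and *Fcgr4* had a Pearson r of 0.76 and those of *Fcgr3* and *Fcer1g* an r of -0.83. The other 8 pairs were between 0.03 and 0.38. The genes most like *Fcgr1* were *Etv6* (r = 0.961), *Sp140* (0.960), *Casp8* (0.959), *AI607873* (0.957) and *Aldh1b1* (0.951). *Casp8* encodes the caspase of death receptor signalling, and *AI607873* went from 156.3 to 796.7 CPM with ACs in SjSS in the group means. For *Fcgr4* they were *Syf2* (0.948), *Snap29* (0.932), *Xrn1* (0.929), *Aftph* (0.927) and *Acer3* (0.924).

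*Fcer1g* was most like *Map3k8* (r = 0.989), the kinase Tpl2 of TLR signalling, *Surf4* (0.980), *Tgs1* (0.979), *Lacc1* (0.979) and *Xkr8* (0.977), and *Fcgr3* most like *Entpd4* (0.970), *Msrb1* (0.968), *Hsd17b4* (0.963), *Gm21685* (0.961) and *Smap2* (0.960). *Fcgr2b* had weaker matches in *Gstm2* (0.918), *Atrnl1* (0.865), *Sirpb1b* (0.864), *Clec4n* (0.861), the gene of Dectin-2, and *Mboat7* (0.860). Each r was over the same 18 samples.

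Of 34 genes for proximal signalling of the activating receptors, from Src kinases to PI3K and the CARD9 complex, 13 were higher and 5 lower with ACs in B6, and 22 were higher and 8 lower in SjSS, against 20.0% higher and 18.3% lower of all genes in B6 and 28.6% and 29.4% in SjSS. With CpG, 21 were higher and 6 lower in B6, and 19 were higher and 7 lower in SjSS, against 28.1% and 29.8% of all genes in B6 and 27.8% and 26.4% in SjSS. The medians of their log2 fold changes were 0.14 and 0.44 with ACs and 0.29 and 0.35 with CpG, for B6 and SjSS in turn, where those of all genes were 0.001, -0.017, -0.041 and -0.014. Without treatment 3 were higher and 9 lower in SjSS than in B6, after ACs 20 and 8, and after CpG 1 and 15, against 9.04% and 10.6%, 24.0% and 25.5%, and 10.2% and 9.57% of all genes. For the interaction with AC, 19 were positive and 8 negative, and with CpG 0 and 4, against 19.6% and 18.3%, and 3.23% and 2.62% of all genes.

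*Lcp2*, which encodes the adaptor SLP-76, went from 76.16 ± 1.92 to 384 ± 0.272 CPM with ACs in SjSS and from 104.7 ± 2.40 to 176.1 ± 15.4 CPM in B6 (SD, n = 3), and its interaction was 1.58 ± 0.13 (edgeR, adjusted p = 1.093e-08). *Malt1*, of the CARD9 complex, had an interaction of 1.43 ± 0.13 (edgeR, adjusted p = 8.200e-08). *Syk*, the kinase that binds the gamma chain, chosen after its values were seen, was past the fold threshold with CpG in both strains, at 1.49 ± 0.07 in B6 (edgeR, adjusted p = 9.491e-13) and 1.33 ± 0.07 in SjSS (edgeR, adjusted p = 6.211e-12).

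Other genes past the fold threshold in this list included *Src*, at 2.72 ± 0.13 with ACs in SjSS and 1.52 ± 0.13 in B6, *Fgr*, at 1.40 ± 0.10 with ACs in B6, and *Pik3r5* and *Pik3cg*, subunits of PI3Kγ, at 1.89 ± 0.08 and 1.66 ± 0.07 with CpG in SjSS. None of the 34 was past it downwards in any of the 9 comparisons.

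Of 14 genes for inhibitory signalling, 5 were higher and 3 lower with ACs in B6, 7 and 5 in SjSS, 9 and 3 with CpG in B6 and 10 and 3 in SjSS. Of all genes 20.0% and 18.3%, 28.6% and 29.4%, 28.1% and 29.8%, and 27.8% and 26.4% were higher and lower in these comparisons. *Ptpn6*, which encodes the phosphatase SHP-1, rose by 1.44 ± 0.06 with CpG in B6 (edgeR, adjusted p = 6.601e-13). *Pirb* and *Lilrb4a*, ITIM receptors, rose by 1.48 ± 0.05 and 1.48 ± 0.07 in the same comparison, and *Cd300a*, another, fell by 1.40 ± 0.08, from 289.3 ± 20.0 to 109.7 ± 13.7 CPM. With CpG in SjSS, *Lilrb4a* and *Pirb* were also past the fold threshold, each at 1.44 on the log2 scale with SE of 0.07 and 0.05, as was *Lilrb4a* with ACs in SjSS, at 1.44 ± 0.07. None of the 14 had a strain difference or interaction past the fold threshold, whereas *Fcgr2b*, which is not in the list, had 3.

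The gamma chain also serves other receptors. Of 12 ITAM adaptors and gamma chain partners, 11 were in the table and 10 were tested, of which 2 were higher and 2 lower with ACs in B6, and 6 were higher and 0 lower in SjSS, against 20.0% and 18.3% of all genes in B6 and 28.6% and 29.4% in SjSS. *Clec4e*, which encodes Mincle, a receptor for dead cells and mycobacterial glycolipid, stood at 15.74 ± 0.324 CPM in control B6 and 5.447 ± 1.20 CPM in control SjSS, and at 315.1 ± 35.3 and 842.2 ± 34.8 CPM after ACs. It rose by 4.32 ± 0.12 and 7.29 ± 0.14 on the log2 scale, and the interaction was 2.97 ± 0.16 (edgeR, adjusted p = 7.241e-11). *Clec4n* went from 215.1 ± 22.3 to 98.74 ± 10.9 CPM with ACs in B6 and from 127 ± 24.1 to 171.1 ± 19.7 CPM in SjSS, an interaction of 1.56 ± 0.18 (edgeR, adjusted p = 1.955e-06). *Cd247*, the CD3 zeta chain, was also called but stayed at or below 0.742 CPM in every sample.

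Of 13 other receptors for immunoglobulin, 9 were in the table and 6 were tested. *Trim21*, the cytosolic IgG receptor that is also the Ro52 autoantigen of Sjögren's syndrome, was at 25.85 ± 1.13 CPM in control and 222.3 ± 11.1 CPM in AC treated SjSS samples, a log2 fold change of 3.10 ± 0.09 (edgeR, adjusted p = 1.649e-15). Its interaction with AC was 2.30 ± 0.12 (edgeR, adjusted p = 8.911e-11). *Fcgrt*, the neonatal Fc receptor, was at 152.4 ± 8.005 CPM in control B6 and at 191.9 ± 4.627 CPM in control SjSS samples. After ACs it was at 85.84 ± 6.86 CPM in B6 and at 215.5 ± 14.4 CPM in SjSS samples, a log2 difference of 1.33 ± 0.07 (edgeR, adjusted p = 2.990e-11). *Fcrl5* was at 4.267 ± 1.20 CPM in control B6 and 1.159 ± 0.175 CPM in control SjSS, and rose with CpG to 33.53 ± 5.72 and 50.9 ± 13.8 CPM, with an interaction of 2.45 ± 0.36 (edgeR, adjusted p = 4.508e-04). *Fcer1a*, *Ms4a2*, *Fcamr* and *Pigr* were not analysed here.

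Of 11 transcription factors of interferon and macrophage genes, 8 were higher and 3 lower with ACs in each strain, against 20.0% and 18.3% of all genes in B6 and 28.6% and 29.4% in SjSS. *Irf1*, a factor induced by interferon, was at 78.84 ± 9.996 CPM in control and 1371 ± 84.1 CPM in AC treated SjSS samples, but at 72.98 ± 3.70 and 127.9 ± 2.72 CPM in B6, an interaction of 3.31 ± 0.14 (edgeR, adjusted p = 8.247e-12). *Stat2* had an interaction of 1.77 ± 0.19 (edgeR, adjusted p = 6.327e-07). *Irf7* rose in both strains, by 2.57 ± 0.19 in B6 and 2.81 ± 0.19 in SjSS. *Cebpa* fell with CpG in both, by 2.34 ± 0.11 in B6 and 1.87 ± 0.10 in SjSS, and had an AC interaction of -1.32 ± 0.14 (edgeR, adjusted p = 5.902e-07).

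Genes near the members were counted because SjSS mice carry NOD intervals. The ends of the intervals were not in the sources used here, so whether the members lie in them was not determined. Within 1000 kb of the *Fcgr2b* to *Fcer1g* region, 60 other genes were tested, and without treatment 11 were higher and 22 lower in SjSS than in B6, or 55% against 19.6% of all genes. Of 67 genes within 1000 kb of *Fcgr1*, 14 were higher and 11 lower, or 37.3%. After ACs these shares were 58.3% and 49.3%, against 49.4% of all genes, and after CpG 45% and 25.4%, against 19.7%.

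Among the nearest tested genes, *Gm42743*, a lincRNA 3.91 kb from *Fcgr1* on the opposite strand, had 0 counts in the control and AC treated B6 samples and 2 counts in all in the CpG treated B6 samples. It held 4.918, 4.407 and 5.729 CPM in control SjSS samples and between 3.545 and 5.504 CPM in the treated ones, so that the strains lay apart under each treatment. *Gm9207*, 160.86 kb to the other side, did not differ past the test in control samples (0.03 on the log2 scale). *Cfap126*, the next tested gene after *Fcgr3*, was at 1.748 CPM in control B6 and 0.7319 CPM in control SjSS in the means, a log2 difference of -1.26 (edgeR, adjusted p = 0.0091). *Gm2962*, before *Fcgr2b*, differed by -0.37, and *Tomm40l*, before *Fcer1g*, by -0.24.

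**Figure D4:**
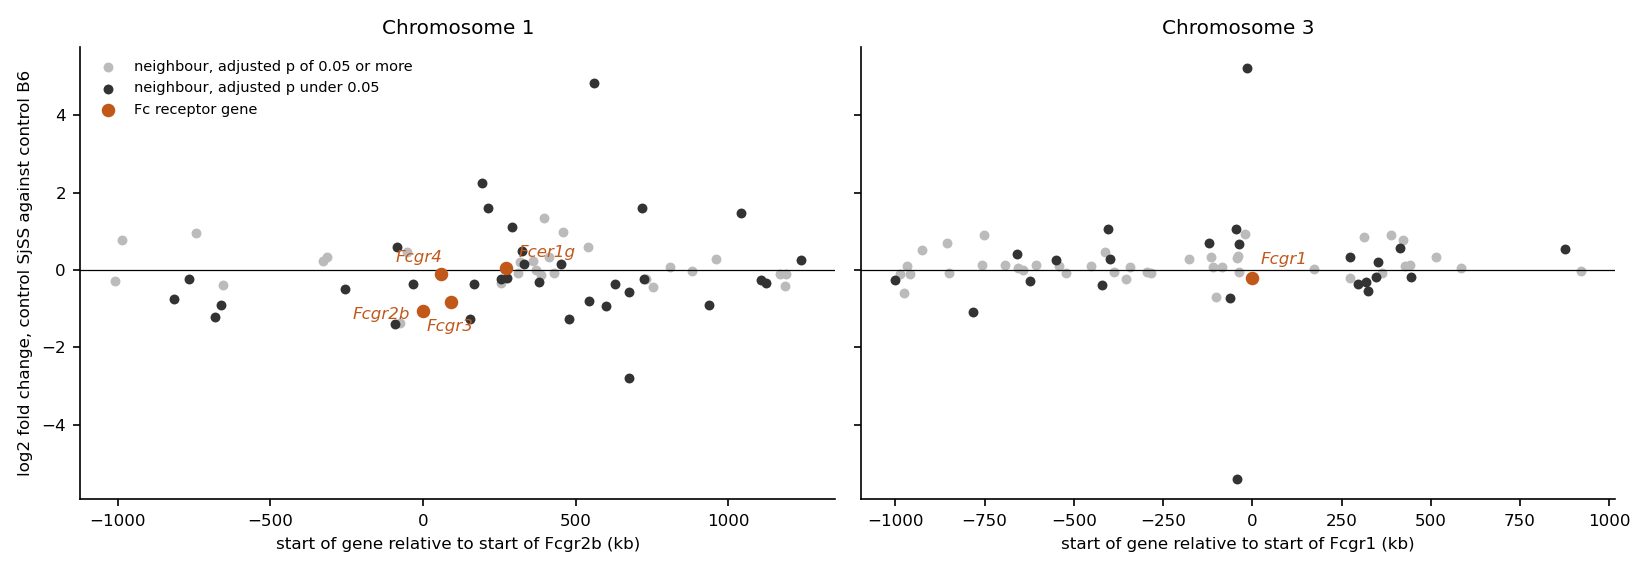
Log2 fold change of control SjSS against control B6 BMDMs (vertical axis) against the start of each tested gene in kb from the start of *Fcgr2b* (left) or *Fcgr1* (right). Points are genes, dark where the adjusted p was under 0.05 and orange for the Fc receptor genes. The 2 genes of chromosome 3 without counts in 1 control group are not drawn. *Fcgr2b* and *Fcgr3* lie below 0, among neighbours on both sides of it.

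Markers of other cells moved with some of these results. The summed T cell and thymocyte list was between 4.309 and 4.725 CPM in AC treated B6 samples, below the 7.91 to 10.02 CPM of control B6. In SjSS it was between 13.5 and 18.22 CPM in AC treated samples, above the 10.2 to 11.64 CPM of control samples. Most of this sum was *Cd4*. No marker of the list was at 0 in either AC treated group. *Rag1* was at 0 in the control and CpG treated groups of both strains, and *Trac* also in control B6. The 3 neutrophil markers in the table, of 6 listed, summed to between 11.03 and 12.73 CPM in CpG treated B6 and 5.555 and 5.961 CPM in CpG treated SjSS samples, against at most 4.902 CPM in all others, with none at 0 after CpG. The 4 dendritic cell markers summed to between 2.355 and 3.298 CPM in AC treated SjSS samples and at most 1.574 CPM elsewhere. The 2 mast cell and basophil markers in the table, of 6 listed, were at most 1.598 CPM. Their part in the results was not tested.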

How the data were processed

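The authors aligned reads to mm10, the genome of C57BL/6, with STAR and quantified genes with Partek's E/M tool. The values the authors deposited were estimated counts per gene, not normalized, of which 41.1% were not whole (tolerance 1e-06). They were rounded here. How NOD sequence affects alignment to mm10 was not tested. No value column was left unmapped.

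Genes were kept by filterByExpr in edgeR 4.0.16 (R 4.3.3), and libraries were scaled by TMM. One mean per group was fitted to all 18 samples with edgeR's quasi-likelihood test (two-sided), and the Benjamini-Hochberg adjustment was made over 15789 genes within each of 9 comparisons. The fold threshold of 1.3 on the log2 scale was that of the study's methods. SE was the log2 fold change divided by the square root of F. CPM used TMM scaled totals, with SD over 3 samples. Exon lengths came from GENCODE M21, promoters from RefSeq, in which all 5 genes matched by symbol, and correlations were on log2 CPM (prior count 2). The script was tested on simulated data with known changes. Tables were made in Python 3.11.15 (numpy 2.4.6 and pandas 2.3.3) and figures with matplotlib 3.10.9.

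The members, lists and tests were chosen with earlier results of these data known. Named genes were the members, the 5 genes most like each, up to 4 genes of each list past the fold threshold per comparison with the largest changes, and the nearest tested gene on each side. Alternatives were DESeq2 1.42.0, its size factors in edgeR, no filter, a filter of 10 counts in 3 samples, fits of the compared groups only, other fold thresholds, the replicate number as a block and each sample left out. Deviations from group means correlated above 0.1 in every same-numbered pair for control and CpG treated B6 samples (0.137 to 0.264) and not for the other groups compared. Same-numbered pairs also lay above all pairs of different number in SjSS. They were at 0.059 to 0.142 against at most -0.006 for control and CpG. For AC and CpG they were at 0.059 to 0.107 against at most -0.003. For control and AC they were at 0.027 to 0.105 against at most 0.024. AC and CpG treated B6 samples did so too (0.031 to 0.109 against at most 0.025), control and AC treated B6 samples did not. Between strains they overlapped. The main fit did not use the replicate number. The lowest correlation between replicates was 0.9862, and no pair of samples agreed within sampling noise. Depth limits precision through counting error, which is small at 1690 or more counts in every sample for the 5 genes. Results for some genes that these rules name are not reported here.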

Additional observations from a re-analysis of the deposited data

Results flagged for a closer look

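The response to ACs differed between the strains, by the test of strain with AC, for all 5 genes: the log2 difference of SjSS from B6 was 1.41 for *Fcgr1*, 0.59 for *Fcgr3*, 1.17 for *Fcgr4*, 0.55 for *Fcer1g* and 2.48 for *Fcgr2b*. The response to CpG differed for *Fcgr2b*, by -1.13. These values all passed edgeR's quasi-likelihood test at an adjusted p under 0.05. Of all genes tested, 19.6% passed it with a positive and 18.3% with a negative interaction of strain with AC. With CpG these shares were 3.23% and 2.62%. With 3 samples in a group, no test for a sample far from the others was made.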

How the results depend on the processing

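Of 45 results of the 5 genes over 9 comparisons, 36 kept their direction and their side of the threshold in every alternative, and of 630 alternatives 613 did, while 5 lost a call, 8 gained one and 4 changed sign. The number of members called was 3 and 4 with ACs, 3 and 4 with CpG (B6 and SjSS), 2, 5 and 3 between strains (control, AC and CpG), and 5 and 1 for the interactions with AC and CpG, with no fold threshold. With a log2 fold change over 2 it was 0 for ACs in SjSS, for CpG in each strain and between strains without treatment and after ACs. It was 1 for ACs in B6, between strains after CpG and for the interaction with AC. Shares of all genes with no fold threshold are given above, and those over 2 are not given here. Leaving out 1 sample changed none of the counts of members at the threshold of 1.3. The calls gained were *Fcgr2b* with ACs in SjSS (0.0348 to 0.29 when a sample was left out), *Fcgr4* with CpG in B6 (-0.32 to -0.12, and -0.20 with the replicate block within strain, adjusted p = 0.0173), *Fcgr1* between control strains with only these groups (-0.20, adjusted p = 0.0385), *Fcgr1* for strain and CpG with DESeq2 (-0.46, adjusted p = 0.0450) and with a sample left out (-0.55 to -0.28), and *Fcgr3* for strain and CpG with the replicate block within strain (0.30, adjusted p = 0.0222). The call lost was *Fcgr3* between AC treated strains, with DESeq2's size factors (-0.19) and when a sample was left out (-0.26 to -0.16). Without 1 sample the sign changed for *Fcgr1* with CpG in B6 (-0.0791 to 0.129 over the samples left out), for *Fcgr4* with CpG in SjSS (-0.0406 to 0.138) and for *Fcer1g* between CpG treated strains (-0.0649 to 0.0181), none of which passed the test in any of these. The cause was not tested. The replicate block without strain changed 0 of 45 calls, and the block within strain changed 2 of 30. The block within strain and the longest coding transcript were chosen after seeing the data. DESeq2's size factors moved the median of all genes by at most 0.028 on the log2 scale.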
